A study of Mus musculus with 18 samples.

Results

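The genes described here are 37 interferon-stimulated genes, taken by symbol from a table of 18909 genes measured by RNA sequencing in cultured mouse tumour cells, and all 37 were in the table. The 6 groups, of 3 libraries each, were E0771 mammary tumour cells with MRTFA, with MRTFB or with the empty pRetrox vector as the control, and B16F10 melanoma cells with MRTFA, with MRTFB or with the empty vector. Both lines are of the C57BL6 strain, and all 6 groups, controls included, were kept in doxycycline at 500 ng/mL for 48 h, the drug that turns on the transgene. The comparisons ask which genes respond to more MRTFA or MRTFB, a pair of actin-regulated coactivators of the transcription factor SRF. The sources used here do not give whether the cells are clones or pools, or whether the replicates are separate cultures, so a p-value measures the spread between these libraries, which may be technical.

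Interferons are secreted when cells sense viral nucleic acid, and they act through paired receptors and JAK kinases on STAT proteins. STAT2 and IRF9 take part in a complex that binds the interferon-stimulated response element (ISRE), a motif that interferon regulatory factors bind as well, while the gamma-activated site (GAS) is a motif of the interferon gamma response. The genes switched on in this way encode sensors of viral RNA, antiviral enzymes, GTPases, the ubiquitin-like modifier ISG15 and the factors of the pathway itself, and tumour cells can keep them on at a low level.

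The promoters are shown as background to the list. Its genes were chosen by name as interferon-stimulated, so the shares below do not bear on how they moved between libraries. RefSeq windows on GRCm38.p6 were found for 30 of the 37 genes, each running from 250 bases before to 50 bases after a transcription start. The ISRE core, searched as GAAANNGAAA on both strands, was in the window of 15 of the 30 genes, against 3.99% of the 27025 genes with a window. GAS, searched as TTCNNNGAA on both strands, was in 8 of the 30 (26.7%), against 9.55% of all genes, and the CArG box bound by SRF was in 0 of the 30, against 1.81%. Letters in a window are not evidence of binding. The first 4 windows below belong to the genes called higher with MRTFA in E0771 cells, and the last to Isg15, whose ISRE cores overlap. Irf7, which came before Ifi35 and Isg15 by adjusted p with the block described below (limma), had neither motif in its window, which is not shown. They read 5′ to 3′ along the gene, with matches to either motif in capitals.
Gbp2, chr3:142620413-142620712 (+ strand): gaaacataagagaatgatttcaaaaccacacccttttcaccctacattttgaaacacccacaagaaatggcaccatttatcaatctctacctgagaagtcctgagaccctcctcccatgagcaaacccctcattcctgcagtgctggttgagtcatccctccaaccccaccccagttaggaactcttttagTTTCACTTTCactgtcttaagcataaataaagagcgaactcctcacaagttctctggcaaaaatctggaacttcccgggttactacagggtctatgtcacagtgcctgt
Ifitm3, chr7:141010695-141010994 (− strand): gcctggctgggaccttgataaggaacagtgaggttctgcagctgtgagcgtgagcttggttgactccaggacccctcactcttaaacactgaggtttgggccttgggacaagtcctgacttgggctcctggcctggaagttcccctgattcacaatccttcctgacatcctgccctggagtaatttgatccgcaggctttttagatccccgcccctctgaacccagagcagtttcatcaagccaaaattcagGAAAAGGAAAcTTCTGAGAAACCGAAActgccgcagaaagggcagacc
Irf1, chr11:53769764-53770063 (+ strand): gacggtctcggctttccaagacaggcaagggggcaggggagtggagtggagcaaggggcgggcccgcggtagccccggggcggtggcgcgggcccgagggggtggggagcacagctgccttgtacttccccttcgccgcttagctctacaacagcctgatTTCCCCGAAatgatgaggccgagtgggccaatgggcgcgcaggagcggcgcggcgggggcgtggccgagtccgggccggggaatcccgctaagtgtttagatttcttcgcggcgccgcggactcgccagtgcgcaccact
Ifi35, chr11:101448162-101448461 (+ strand): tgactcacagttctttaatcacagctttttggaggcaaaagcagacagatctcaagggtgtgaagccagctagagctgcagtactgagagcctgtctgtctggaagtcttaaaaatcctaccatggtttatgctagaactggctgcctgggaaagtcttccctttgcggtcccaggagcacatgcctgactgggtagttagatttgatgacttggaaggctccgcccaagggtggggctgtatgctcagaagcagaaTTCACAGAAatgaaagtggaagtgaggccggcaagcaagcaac
Isg15, chr4:156200769-156201068 (− strand): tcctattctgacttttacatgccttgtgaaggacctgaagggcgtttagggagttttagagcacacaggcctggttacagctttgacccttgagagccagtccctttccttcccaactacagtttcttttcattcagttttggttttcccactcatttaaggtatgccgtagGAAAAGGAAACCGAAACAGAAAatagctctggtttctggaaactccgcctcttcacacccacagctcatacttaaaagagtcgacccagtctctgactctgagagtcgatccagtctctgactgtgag
Gbp2 had 1 ISRE core, and Isg15 had 3 that overlap one another. Ifitm3 had 2 ISRE cores around a GAS motif. Irf1 and Ifi35 had 1 GAS motif each and no ISRE core in these windows.

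Values are reads divided by the library's size factor, called scaled values below. The libraries held 27607055 to 37116655 reads, and the reads carry no molecular identifiers, so depth covers counting error only. Mkl1, which encodes MRTFA, had 12469, 16556 and 12159.7 in E0771 MRTFA libraries and 1124, 1514 and 1408 in E0771 controls. Mkl2, which encodes MRTFB, had 2056, 2206 and 2211 in E0771 MRTFB libraries and 1235, 1349.9 and 1446 in E0771 controls, and both of these differences were called. In B16F10 cells Mkl1 had 1398, 902 and 1314 in the libraries labelled MRTFA and 1109, 987 and 949.7 in controls, and Mkl2 had 1964, 1738 and 1955 in the libraries labelled MRTFB and 1290.0, 1333 and 1881 in controls. Neither was called (adjusted p = 0.856 for Mkl1 and 0.503 for Mkl2), and the sources used here do not say whether the transgenes carry mouse sequence, so these libraries are called by their labels below. The 7 melanocyte markers summed to 369 to 636 in E0771 libraries and to 561637 to 757748 in B16F10 libraries. The 6 mammary epithelial markers measured summed to 5827 to 17209 in E0771 libraries and to 18.1 to 160.2 in B16F10 libraries. Their sums were higher with MRTFA in E0771 cells (15160.5 to 17209) than in the controls (5827 to 7908), a difference whose part in the results below was not tested. Most of these E0771 sums was Krt8, with 14618, 16640 and 15388 in MRTFA and 5689, 7794 and 6676 in control libraries. Krt7, Krt19 and Lcn2 were also higher with MRTFA in E0771. Epcam (32.9, 18.6 and 49.1 against 30.2, 27.0 and 69.1) and Cdh1 overlapped the controls. Cdh1 was lower in E0771 controls (4.03, 5.01 and 4.67) than in B16F10 controls (74.1, 66.2 and 27.7). Of the 10 leukocyte and macrophage markers only Csf1r was in the table, at 0 to 15.7. The 4 endothelial and fibroblast markers measured summed to 331 to 407 in E0771 MRTFA and to 842 to 1023 in E0771 control libraries. Nearly all of this was Pdgfra, with 388, 307 and 390 in MRTFA and 823, 898 and 1007 in control libraries. Pecam1, Cdh5 and Dcn were at 0 to 17.1 in these libraries and did not fall together. In RNA from whole cultures, fewer cells that express a gene and less RNA per cell cannot be told apart.

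The library of replicate number 3 stood apart in all 6 groups. Among the genes with a scaled value of at least 10 in at least 3 libraries of a line, called tested below, the third library was the highest of its group for 36 of 37 interferon-stimulated genes in E0771 MRTFA, 36 of 37 in E0771 MRTFB and 35 of 37 in E0771 control libraries, against 41.5%, 37.2% and 31.0% of all tested genes. In B16F10 it was the highest for 35 of 36 genes in the libraries labelled MRTFA, 36 of 36 in those labelled MRTFB and 33 of 36 in controls, against 30.0%, 35.2% and 38.4%. The median gene of the 37 was above the mean of replicates 1 and 2 by a log2 difference of 2.61 in E0771 MRTFA, 1.68 in E0771 MRTFB and 1.66 in E0771 controls. In B16F10 the median was 2.15 in the libraries labelled MRTFA, 1.91 in those labelled MRTFB and 1.16 in controls, while that of all tested genes lay between −0.019 and 0.017 in the 6 groups.

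The difference of the third library was not uniform over the genes. At least 2-fold above both other libraries were 32 genes in E0771 MRTFA, 26 in E0771 MRTFB and 19 in E0771 controls (1.65%, 2.36% and 1.83% of all tested genes), and 29 in each B16F10 group with a transgene label and 17 in B16F10 controls (1.62% for MRTFA, 3.17% for MRTFB and 1.90% for controls). Oas2, an oligoadenylate synthetase that activates RNase L, had 1.99, 0 and 79.4 in E0771 MRTFA libraries, 0, 0 and 34.2 in E0771 MRTFB libraries and 2.01, 0 and 14 in E0771 controls, where a count of 0 allows up to 3 reads. Irf1, an early transcription factor of the response, had the third library below the first in E0771 MRTFA, E0771 MRTFB and both control groups, and Ifit2, which binds viral RNA, was 2-fold above both other libraries in no group. Only 28 genes of the table were at least 2-fold above both other libraries in all 6 groups (0.188% of those tested in both lines together). Of these, 11 belong to the 37 (Oas2, Xaf1, Usp18, Oas1a, Rtp4, Igtp, Mx2, Ifi44, Ddx58, Parp14 and Gbp3), 11 to a list of 75 other interferon pathway genes, and 6 to neither list (Apol9a, Trim30d, Apol9b, Mndal, C1s1 and Psmb8). The libraries' serial numbers in the labels run in blocks, 1 to 6 for replicate 1, 7 to 12 for replicate 2 and 13 to 18 for replicate 3, and what they mark is not stated. Same-numbered libraries deviated together (every correlation above 0.1) in 5 of the 6 comparisons within a line, but not between MRTFA and control in E0771 (lowest r = 0.0842) nor between the lines, so blocked values there rest on a number that the labels leave undefined. For these reasons each comparison is given over all libraries, within equal-numbered pairs, with the replicate number as a block in the fit, and without the third libraries.

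**Figure D1:**
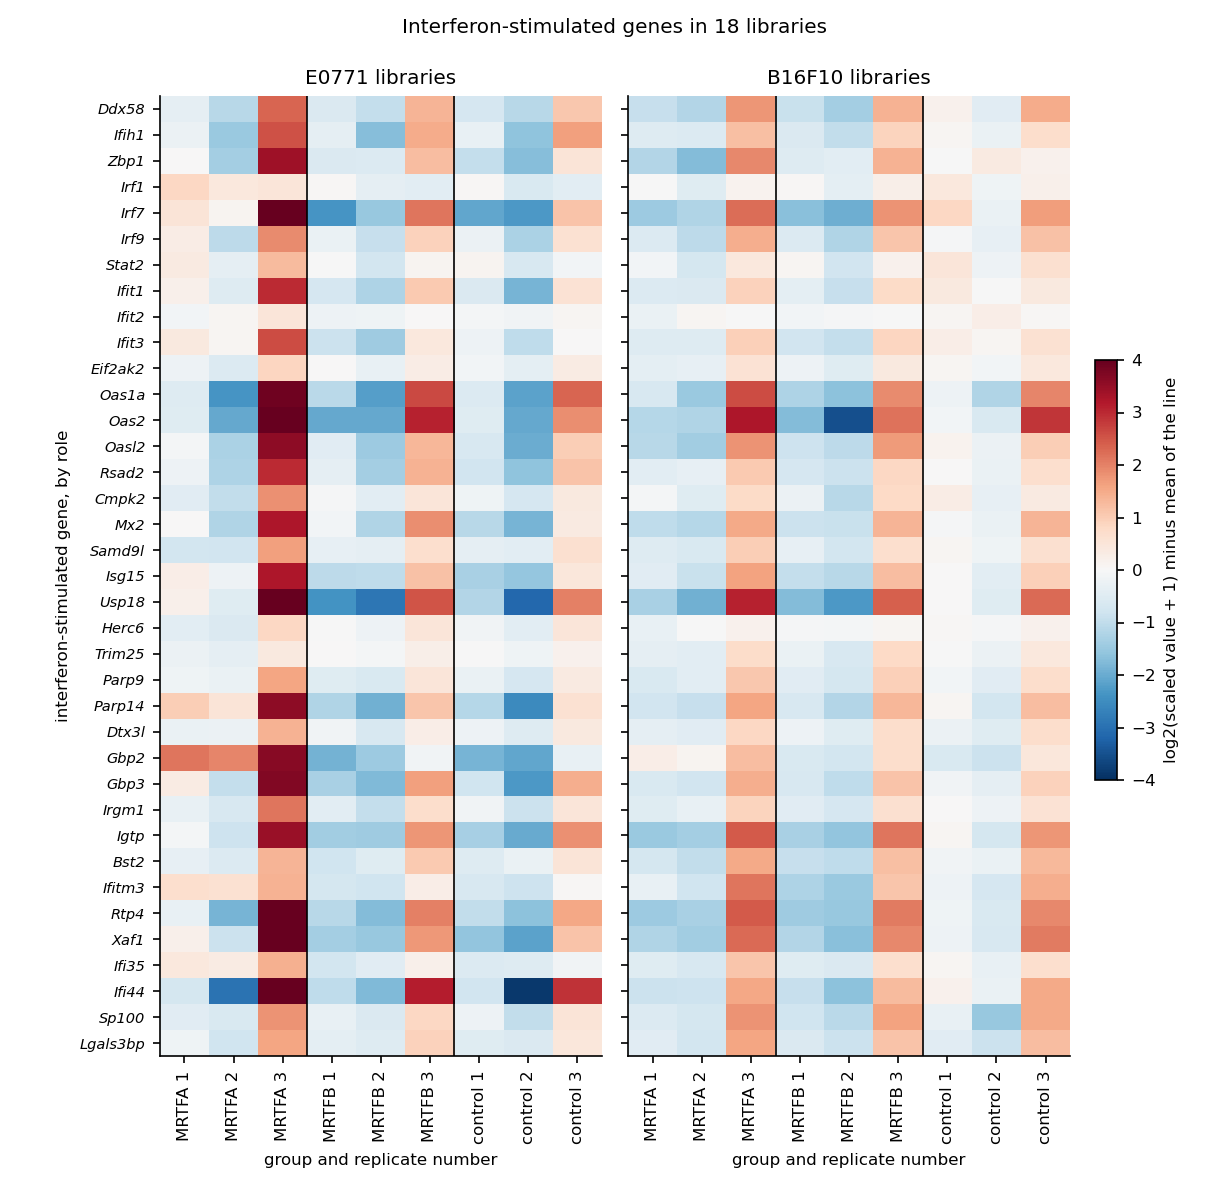
Heat map of the 37 genes (rows, by role) in the 18 libraries (columns, with E0771 at the left and B16F10 at the right, and MRTFA, MRTFB and control in each). Colour is log2(scaled value + 1) minus the gene's mean over the 9 libraries of the line, with the scale ending at −4 and 4. In every group the third library is the reddest of its 3, and Gbp2 and Irf1 are high in all 3 E0771 MRTFA libraries.

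**Figure D2:**
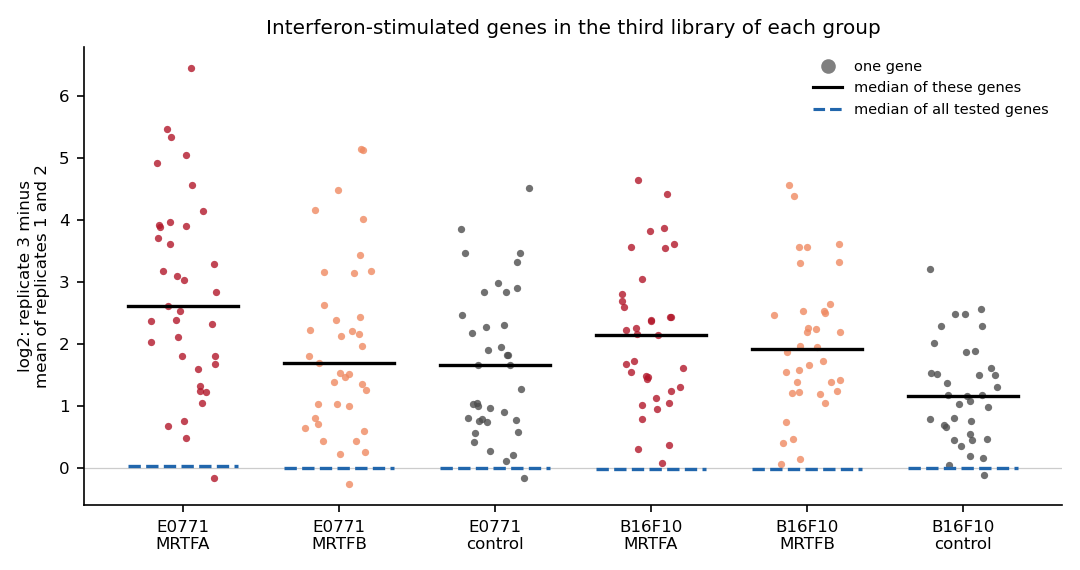
Log2 difference of the third library from the mean of replicates 1 and 2, for each tested interferon-stimulated gene (points, with random sideways shift) in the 6 groups. Black lines are the medians of these genes, from 1.16 in B16F10 controls to 2.61 in E0771 MRTFA, and dashed blue lines are the medians of all tested genes, close to 0.

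A few of the 37 genes were abundant in the control libraries and many were low. Per kilobase of exon, Ifitm3, which keeps viruses from fusing with cell membranes, averaged 6272 in E0771 and 2226 in B16F10 controls, the highest of the 37 in both lines. Bst2 (tetherin), which holds budding virions on the cell surface, came second with 2776 in E0771 and 2008 in B16F10. Ifi35 (519.6), a leucine zipper protein, and Trim25 (514) followed in E0771. Lgals3bp (1281) and Ifit2 (804) followed in B16F10. At the low end, Zbp1, Mx2 and Oas2 averaged 1.81, 1.76 and 1.2 per kilobase in E0771 controls.

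Between the control groups, 11 of the 37 genes were called, 2 higher and 9 lower in E0771 than in B16F10, where the calls over all tested genes came to 70.2%, with 33.4% higher and 36.8% lower. A call here and below is an adjusted p under 0.05 from limma with Benjamini-Hochberg adjustment over all tested genes, on log2(scaled value + 1). Trim25, the ubiquitin ligase that activates the sensor RIG-I, had 2916, 2629.7 and 3334 in E0771 and 633, 548 and 857 in B16F10 controls (log2 difference 2.14, SE 0.33, adjusted p = 1.92e-05), and Ifitm3 was the other gene called higher. Gbp2, a guanylate-binding protein that attacks vacuoles holding pathogens, had 29.2, 25 and 87.8 in E0771 and 828, 691 and 1709 in B16F10 controls (log2 difference −4.59, SE 0.59, adjusted p = 2.23e-06). Ifit3, a partner of Ifit1 in binding foreign RNA, had 23.2, 13 and 27.1 in E0771 and 537, 468 and 682 in B16F10 controls (log2 difference −4.72, SE 0.64, adjusted p = 4.8e-06). For these 3 genes the libraries of the lines did not overlap. The others called lower were Ifit2, Ifit1, Mx2, Gbp3, Irgm1, Herc6 and Stat2. With the replicate block 27 genes were called, 5 higher and 22 lower (72.9% of all tested genes, 34.8% higher and 38.1% lower). Leaving out the third libraries, 27 of 36 genes were called (67.0%), and 32 with the block as well (69.6%). Without the second E0771 control library 7 were called (10005 of 14843 tested genes), and without the first libraries of every group 5 (9331 of 14405).

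**Figure D3:**
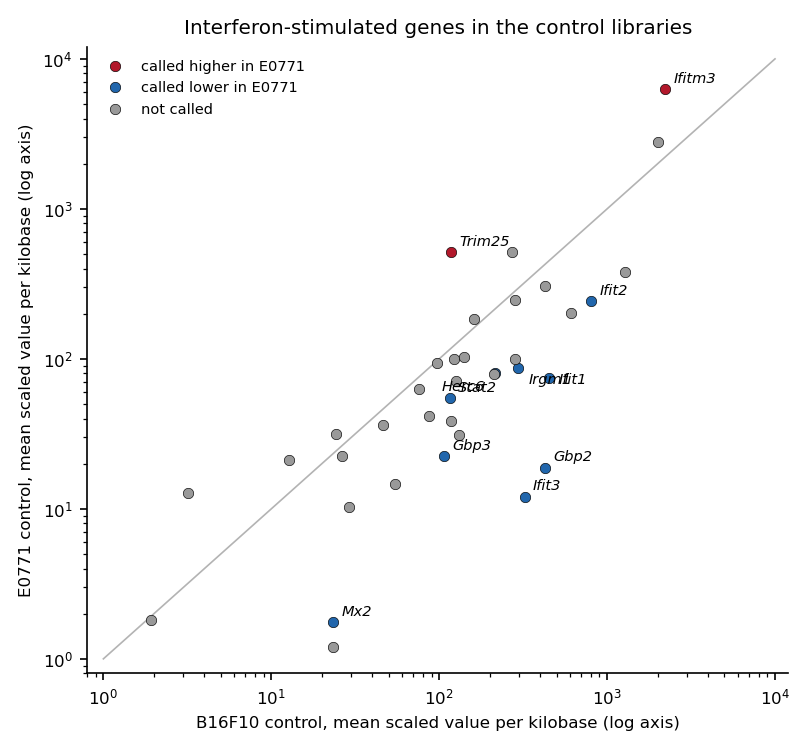
Mean scaled value per kilobase of exon in E0771 controls (vertical) against B16F10 controls (horizontal), both on log axes, 3 libraries each, with the line of equality in grey. Blue genes were called lower and red genes higher in E0771, with Gbp2 and Ifit3 farthest below the line and Trim25 far above it.

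With MRTFA in E0771 cells, 4 of the 37 genes rose and 0 fell over all libraries (Gbp2, Ifitm3, Irf1 and Ifi35), where the calls over all tested genes came to 38.4%, with 20.3% higher and 18.1% lower. With the replicate block 19 rose and 0 fell (48.6% of all tested genes, 24.5% higher and 24.0% lower). DESeq2 without the block called 8, all higher, where it called 5172 of all 13189 tested genes. The median log2 difference was 0.91 over the 37 genes and −0.024 over all tested genes. Within equal-numbered pairs, 22 of the 37 were higher in MRTFA than in control libraries in all 3 pairs (33.4% of all tested genes), and 37 of 37 in pair 3 alone (47.3%). The median pair differences were 0.53, 0.37 and 1.58, so pair 3 carried the largest ones.

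The 4 genes were called in both fits. Gbp2 (ENSMUSG00000028270.12, chr3:142620602-142638008, GRCm38) had 482, 419.9 and 1360.5 in E0771 MRTFA libraries, against 29.2, 25 and 87.8 in E0771 controls. The groups did not overlap, and the 3 pairs differed by nearly the same amount, 4.0, 4.01 and 3.94 on the log2 scale. The mean was 15.9 times that of controls (log2 difference 3.98, SE 0.60, adjusted p = 0.000473, and 2.3e-07 with the block, both limma). Each E0771 MRTFA library still had less Gbp2 than the B16F10 control library of its number.

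Irf1 (ENSMUSG00000018899.16, chr11:53770014-53778374), the transcription factor that can act on interferon-stimulated genes on its own, had 1604, 1227 and 1261 in E0771 MRTFA libraries and 927, 597 and 676 in E0771 controls. All 3 MRTFA libraries were above all 3 controls, with pair differences of 0.79, 1.04 and 0.90 (log2 difference 0.91, SE 0.18, adjusted p = 0.00316, limma). Ifitm3 (ENSMUSG00000025492.6, chr7:141009586-141010770) had 9053, 8733 and 14914 in E0771 MRTFA libraries and 3691, 3198 and 5869 in E0771 controls (log2 difference 1.36, SE 0.31, adjusted p = 0.00621, limma). Its groups did not overlap, and the pairs differed by 1.29, 1.45 and 1.35. Ifi35 (ENSMUSG00000010358.13, chr11:101448407-101458698), an interferon-induced leucine zipper protein, had 1571, 1484 and 3143 in E0771 MRTFA libraries and 796, 820.2 and 1076 in E0771 controls, without overlap (log2 difference 1.13, SE 0.30, adjusted p = 0.0129, limma). With Ifit3 these were the 5 genes of the 37 whose MRTFA libraries were all above the controls, where 24.2% of all tested genes were. The 4 calls were made in every fit that left out 1 E0771 MRTFA or control library. Ifi35 was not called with no filter on low values, nor without all libraries of number 1 or of number 2, and Ifitm3 was not called without those of number 1.

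**Figure D4:**
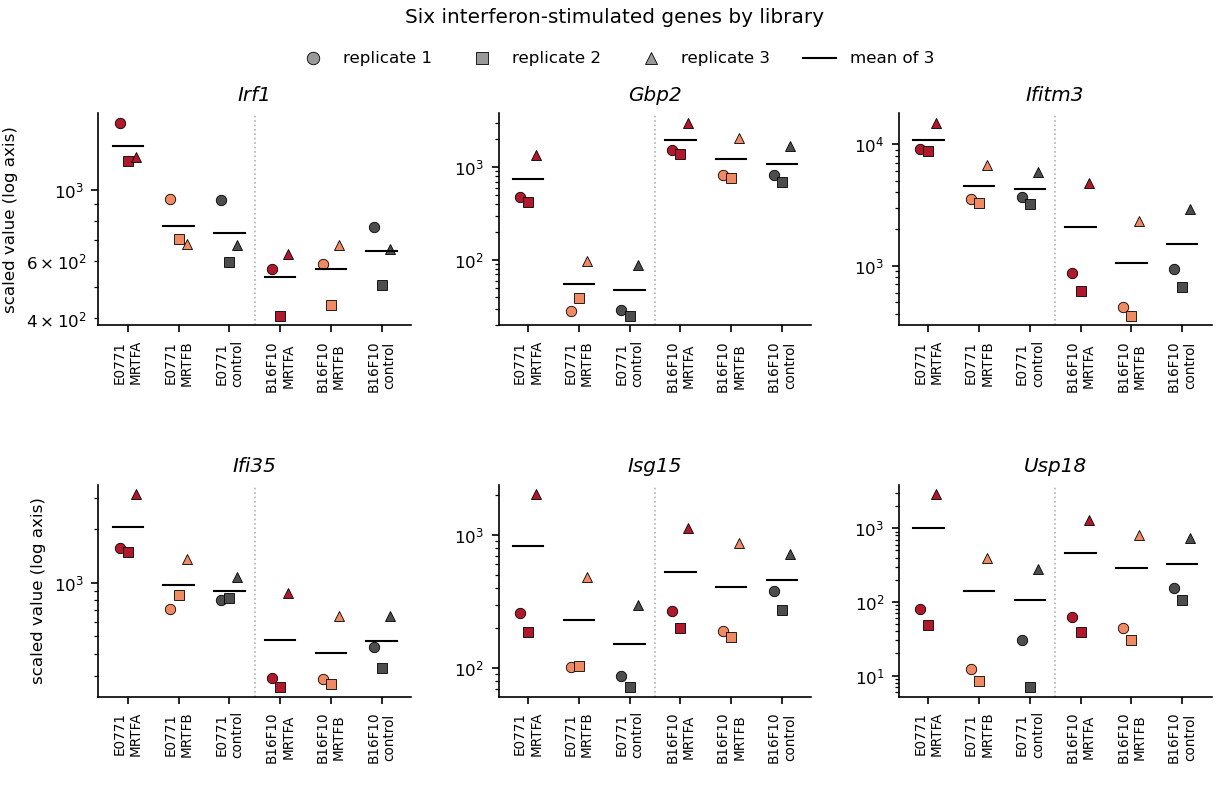
Scaled values (log axis) of 6 genes in each library, by line and group, with replicate numbers as symbols and the mean of 3 as a line. Irf1, Gbp2, Ifitm3 and Ifi35 do not overlap between MRTFA and control libraries of E0771, while for Isg15 and Usp18 the third control library lies above the first 2 MRTFA libraries.

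Over all libraries, the other 3 transcription factors among the 37 (Irf7, Irf9 and Stat2) were called in E0771 MRTFA libraries with the replicate block and not without it. Irf7, the factor that amplifies interferon production, had 139, 105 and 1929 in MRTFA and 22.2, 19 and 214 in control libraries. Each MRTFA library was above its equal-numbered control by a log2 difference of 2.60, 2.40 and 3.17, but the third control lay above the first 2 MRTFA libraries. The adjusted p (limma) was 0.147 without the block and 3.3e-05 with it, at a log2 difference of 2.72. Irf9, the DNA-binding part of the STAT complex, had 503, 199.7 and 1511 in MRTFA and 348, 170.2 and 628 in control libraries, with pair differences of 0.53, 0.23 and 1.27 and adjusted p = 0.488 and, with the block, 0.0186 (limma). Stat2, its partner, had pair differences of 0.24, 0.30 and 1.38 and was called with the block (adjusted p = 0.0258, limma).

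Of the 4 interferon-induced GTPases, Gbp2 was called over all libraries and Gbp3 and Igtp with the block. Gbp3, of the same family as Gbp2, had 78.7, 31.6 and 834 in E0771 MRTFA and 35.2, 12 and 174 in E0771 control libraries, with pair differences of 1.14, 1.32 and 2.26 (adjusted p = 0.367 and, with the block, 0.00141, limma). Igtp, an immunity-related GTPase, had 48.8, 28.8 and 583 in MRTFA and 20.1, 12 and 187 in control libraries, with pair differences of 1.24, 1.19 and 1.64 (adjusted p = 0.442 and, with the block, 0.00119, limma). For both genes the third library of either group was above the first 2 of the other. Irgm1, which regulates the other immunity-related GTPases, was called in neither fit, with pair differences of −0.16, 0.25 and 1.65.

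In the ISG15 system, Isg15 and the enzyme that removes it were both called, over all libraries, with the block and not without it. Isg15 had 259, 188 and 2023 in E0771 MRTFA libraries and 86.6, 72.1 and 297 in E0771 controls, and Usp18, the ISG15 protease that also dampens the interferon receptor, had 80.7, 49.2 and 2899.6 in MRTFA and 30.2, 7.01 and 283 in control libraries. Pair differences were 1.57, 1.37 and 2.76 for Isg15 (adjusted p = 0.125 and, with the block, 0.000223, limma). They were 1.39, 2.65 and 3.35 for Usp18 (adjusted p = 0.318 and, with the block, 0.000333, limma). Both genes were higher with MRTFA in every pair, and their groups overlapped through the third controls. Herc6, the mouse ligase that attaches ISG15, and Trim25 were called in neither fit and were below the control in pairs 1 and 2.

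Among the 3 genes of ADP-ribosylation, Parp14 differed most. It had 264, 190.4 and 1619.6 in E0771 MRTFA libraries and 60.4, 22 and 207 in E0771 controls, with pair differences of 2.11, 3.06 and 2.97. The adjusted p (limma) was 0.0552 without the block and 4.57e-06 with it, and only the third control lay within the MRTFA range. Parp9 was called with the block (log2 difference 0.58, adjusted p = 0.0293, limma), while Dtx3l, the ubiquitin ligase that pairs with it, was not (log2 difference 0.41, adjusted p = 0.132 with the block). These last genes share 458 exon bases on opposite strands, so their reads may be mixed.

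Of the 11 antiviral effectors, 0 were called over all libraries and 5 with the block (Ifit1, Ifit3, Mx2, Oasl2 and Rsad2), where 20.3% and, with the block, 24.5% of all tested genes were higher. Ifit1 had 282, 170.0 and 1940.4 in E0771 MRTFA libraries and 163, 66.1 and 364 in E0771 controls, with pair differences of 0.79, 1.35 and 2.41 (adjusted p = 0.216 and, with the block, 0.00151, limma). Ifit3 had 35.9, 28.8 and 170.3 in MRTFA and 23.2, 13 and 27.1 in control libraries (adjusted p = 0.112 and, with the block, 0.00768, limma), and its groups did not overlap, the lowest MRTFA library lying just above the highest control. Mx2, of the family of antiviral Mx GTPases, is annotated as a polymorphic pseudogene in the reference genome, and it had 9.96, 3.72 and 101 in MRTFA and 4.03, 2 and 13.1 in control libraries, so its first 2 MRTFA values rest on few reads. Rsad2 (viperin), which makes a chain-terminating nucleotide, had a log2 difference of 0.93, with an adjusted p of 0.019 with the block (limma).

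Of the 37, 5 genes were lower in MRTFA than in control libraries in pairs 1 and 2 (Eif2ak2, Cmpk2, Samd9l, Herc6 and Trim25), where 40.5% of all tested genes were. All of them were higher in pair 3. Samd9l, an inhibitor of viral translation, had 792, 768 and 4080.4 in E0771 MRTFA libraries and 1032, 976 and 2037 in E0771 controls, and without the third libraries it was called lower, at −0.36, against 0.092 over all libraries. Eif2ak2 (PKR), the kinase that halts translation on double-stranded RNA, had pair differences of −0.11, −0.18 and 0.52.

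Other genes of the 37 were higher in all 3 pairs or differed in sign between pairs 1 and 2. Xaf1, a promoter of cell death, had 85.7, 39.9 and 1502 in E0771 MRTFA libraries and 24.2, 16 and 165 in E0771 controls, with pair differences of 1.78, 1.27 and 3.17 (adjusted p = 0.254 and, with the block, 0.000997, limma). The sensors Ddx58 (RIG-I), Ifih1 (MDA5) and Zbp1 were called in neither fit, with log2 differences of 0.52, 0.38 and 1.40. Oas2 was at 0 reads in the second MRTFA and the second control library, so that pair has no difference to give. Bst2, Rtp4, Ifi44, Sp100, Lgals3bp, Oas1a and Ifit2 were not called either, with log2 differences of 0.20 to 1.04.

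Without the third libraries of every group, 11 of the 34 genes then tested were called in E0771 MRTFA cells, 10 higher and 1 lower (31.6% of all tested genes). With the block as well, 15 were called, 14 higher and 1 lower (44.5%). The 10 higher ones were Irf1, Irf7, Isg15, Usp18, Parp14, Gbp2, Igtp, Ifitm3, Xaf1 and Ifi35, and the lower one was Samd9l.

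**Figure D5:**
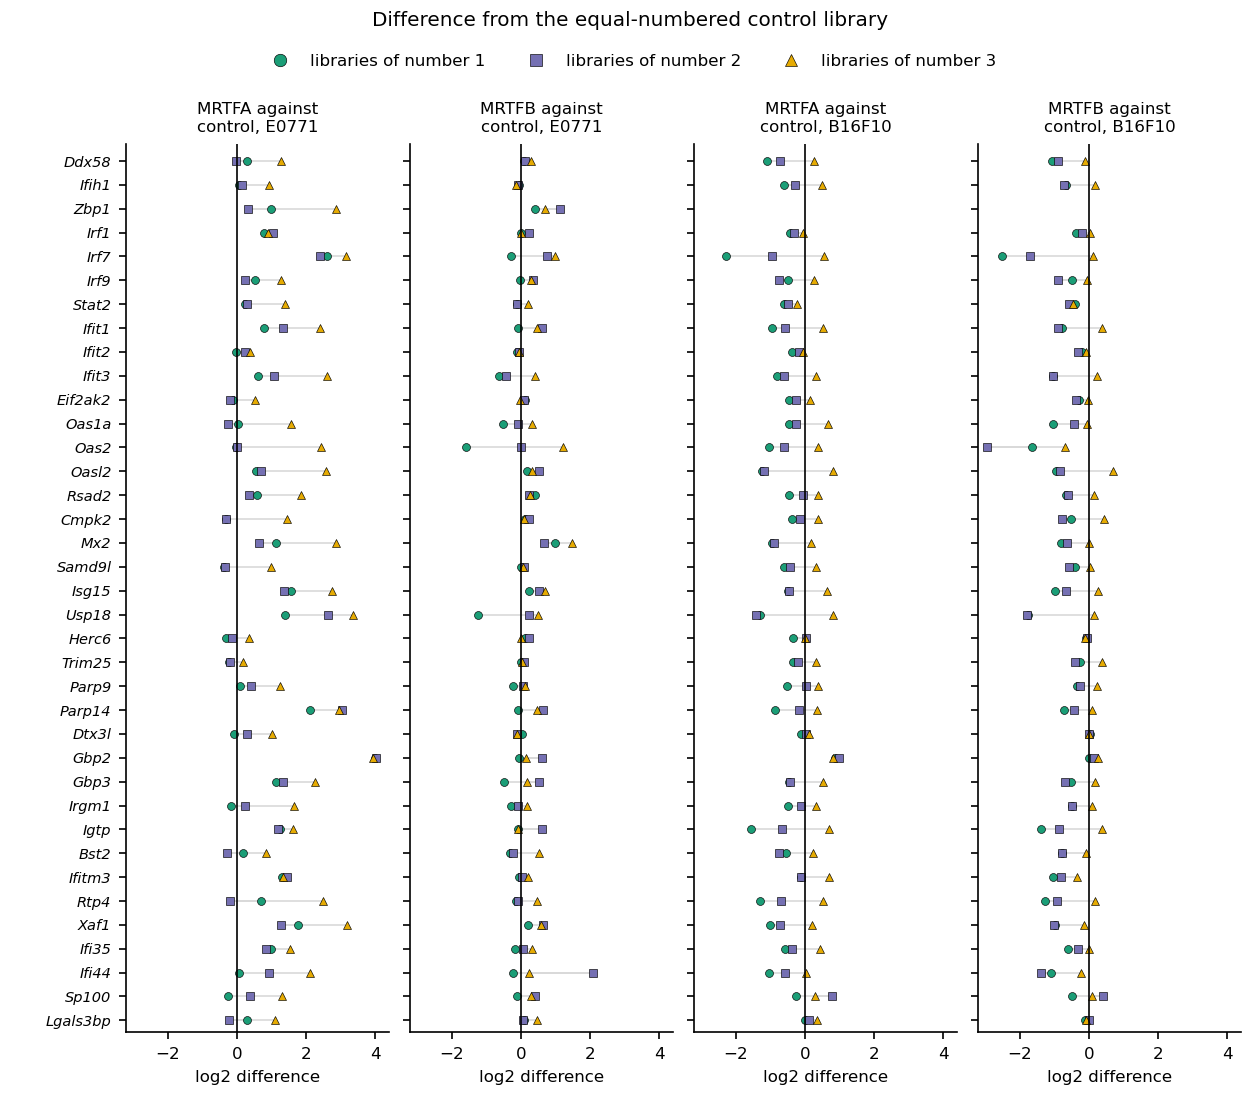
Log2 difference, on the log2(scaled value + 1) scale, between each library and the control library of the same number and line, for the tested interferon-stimulated genes (rows) in 4 comparisons (panels). Symbols mark the replicate numbers. In E0771 MRTFA all points of pair 3 lie at the right of 0, and in the B16F10 panels most points of pairs 1 and 2 lie at the left of 0.

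Of the 75 other interferon pathway genes, 65 were tested in E0771 cells, and with MRTFA 10 were called higher and 5 lower (with the block, 30 and 7), at a median log2 difference of 0.42. As shares of the 65 these compare with 20.3% higher and 18.1% lower over all tested genes, and with the block 24.5% and 24.0%. The 10 interferon genes looked for by symbol were not in the table, which holds only genes whose summed reads reach 15 or more. Ifnar1, a receptor chain for type I interferon, had 1167, 1184 and 1185 in MRTFA libraries and 1296, 1179 and 1233 in controls. Ifngr1, a receptor chain for interferon gamma, had 1081, 1124 and 1070.0 in MRTFA libraries and 1196, 1104 and 1036 in controls, and neither was called. Jak2, a kinase of the interferon gamma receptor, had 1755, 1852 and 1444 in MRTFA and 533, 426 and 389.7 in control libraries (log2 difference 1.91, SE 0.15, adjusted p = 5.42e-06, limma). Stat3, which many cytokine receptors use, had 8979, 9345 and 9472 in MRTFA and 2938, 3043 and 3341 in control libraries (log2 difference 1.58, SE 0.10, adjusted p = 7.6e-07, limma). Both genes were higher in all 3 pairs, without overlap.

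Socs1, an inhibitor of JAK kinases, had 93.6, 58.5 and 65.8 in E0771 MRTFA and 76.5, 81.1 and 90.6 in E0771 control libraries and was not called. Smaller changes were called for Tyk2, a kinase of the interferon receptors (0.66), the receptor chain Il10rb (0.65), the adaptor Myd88 (0.70) and the dNTPase Samhd1 (0.66), all higher. Ifi30, a lysosomal thiol reductase (−0.52), and Isg20, an RNA exonuclease (−0.74), were called lower.

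With MRTFB in E0771 cells, 0 of the 37 genes were called, without or with the replicate block, where 0.144% and 0.250% of all tested genes were. At an unadjusted p under 0.05 there were 0 and 1, and edgeR and DESeq2 called 0. Gbp2 had 28.1, 38.6 and 97.1 in E0771 MRTFB libraries and 29.2, 25 and 87.8 in E0771 controls, Irf1 had 932, 704 and 679 in MRTFB and 927, 597 and 676 in control libraries, and Isg15 had 102, 104 and 484 in MRTFB and 86.6, 72.1 and 297 in control libraries. MRTFB and control libraries overlapped for all 37 genes, where 3.04% of all tested genes were without overlap and higher and 2.56% without overlap and lower. The median log2 difference was 0.084 over the 37 genes and −0.0077 over all tested genes. The blocked 95% intervals of the log2 difference were −0.15 to 0.61 for Gbp2, −0.11 to 0.28 for Irf1 and −0.063 to 1.04 for Isg15. Within pairs, 13 of the 37 were higher in all 3 (12.1% of all tested genes) and 2 lower in all 3 (13.8%), and without the third libraries 0 of 34 were called, without or with the block (0.0802% and 0.337%). The MRTFA and MRTFB comparisons share their control libraries. Set directly against MRTFA, MRTFB libraries of E0771 had Gbp2, Irf1, Ifitm3 and Ifi35 lower, 4 of 37 genes (19.1% of all tested genes lower), and 16 lower with the block (23.2%), with log2 differences of −3.75 for Gbp2 and −0.83 for Irf1. In the absence of the third libraries, 10 were called, 9 lower and 1 higher (29.6%), and 18 with the block, 14 lower and 4 higher (43.5%).

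In B16F10 cells the same list did not show one direction over the 3 pairs. Of the 36 genes tested there (Zbp1 was too low), 0 were called in the libraries labelled MRTFA, where 1.55% of all tested genes were, and 0 at an unadjusted p under 0.05, by edgeR or by DESeq2. With the replicate block 9 of the 36 had an unadjusted p under 0.05 (limma), as had 2761 of all 13517 tested genes. In pairs 1 and 2, 30 of 36 genes were lower in the libraries labelled MRTFA than in controls (29.5% of all tested genes), and in pair 3 32 of 36 were higher (44.6%). The median pair differences were −0.53, −0.39 and 0.35. Over all libraries the median log2 difference was −0.21 over the 36 genes and −0.0098 over all tested genes. Of the 36 estimates 31 were below 0 and 5 above, where 47.3% of all tested genes were above 0. Isg15 had 270.2, 199.7 and 1119 in the libraries labelled MRTFA and 377, 273 and 724 in controls. Usp18 had 61.5, 39.3 and 1281 in the libraries labelled MRTFA and 153, 107 and 729 in controls. In both, the first 2 libraries labelled MRTFA were below the first 2 controls and the third was the highest of the 6.

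With the replicate block, Gbp2 was called higher and Stat2 lower in the B16F10 libraries labelled MRTFA (6.33% of all tested genes called, 3.98% higher and 2.35% lower). Gbp2 had 1520.5, 1372 and 2991 in the libraries labelled MRTFA and 828, 691 and 1709 in controls, with pair differences of 0.88, 0.99 and 0.81 (log2 difference 0.89, blocked SE 0.077, adjusted p = 7.06e-05 with the block and 0.618 without, limma). Its groups overlap only through the third control, and it was called in every fit with the block, including those that left out 1 replicate number. Stat2 had 497, 333 and 715 in the libraries labelled MRTFA and 750.3, 468 and 841 in controls, with pair differences of −0.59, −0.49 and −0.23 (adjusted p = 0.0189 with the block, limma), and it was not called with the block once replicate 1 or replicate 2 was left out. Without the third libraries and with the block, 22 of 35 genes were called, 1 higher (Gbp2) and 21 lower (10.6% of all tested genes). Without them and without the block, Gbp2 alone was called (1.67%).

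In the B16F10 libraries labelled MRTFB, 0 of 36 genes were called (0.126% of all tested genes), 0 at an unadjusted p under 0.05, and 0 by edgeR or DESeq2. With the replicate block 20 of the 36 had an unadjusted p under 0.05 (limma), as had 2903 of all 13517 tested genes. In pairs 1 and 2, 33 of 36 were lower than in controls (36.6% of all tested genes), and in pair 3 22 of 36 were higher (50.4%). The median pair differences were −0.67, −0.65 and 0.06, and 13 were lower in all 3 pairs (21.0%). Over all libraries the median log2 difference was −0.39 over the 36 genes and 0.0012 over all tested genes. Of the 36 estimates 33 were below 0 and 3 above, where 50.4% of all tested genes were above 0. Irf7 had 15.2, 12.4 and 180.4 in the libraries labelled MRTFB and 91.4, 42.8 and 166 in controls, the widest gap of the first 2 pairs among the transcription factors. Ifitm3 had 455, 386 and 2326 in the libraries labelled MRTFB and 935, 669 and 2925 in controls, lower in every pair, with differences of −1.04, −0.79 and −0.33 on the log2 scale. With the block, Ifitm3 (log2 difference −0.72, adjusted p = 0.0208, limma), Stat2 (−0.48, adjusted p = 0.0203) and Oas2 (−1.75, adjusted p = 0.0313) were called lower (2.83% of all tested genes lower), and 0 genes were called with the block once replicate 1 or replicate 2 was left out. Oas2 rests on few reads in the first 2 libraries, 9.53, 2.07 and 159 in those labelled MRTFB and 31.7, 22.4 and 257 in controls. Ifit2 was the 1 gene of the 36 whose libraries labelled MRTFB were all below the controls (7.45% of all tested genes), with 2650.5, 2787 and 2825 in them and 3056, 3439 and 2975 in controls.

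Without the third libraries, 4 of 35 genes were called lower in the B16F10 libraries labelled MRTFB (Irf7, Ifit3, Usp18 and Bst2; 1.71% of all tested genes called), and 26 with the block as well (12.5%). Of the other pathway genes, 67 were tested in B16F10. In the libraries labelled MRTFA limma called 0 of them (1.55% of all tested genes) and 5 had an unadjusted p under 0.05, and with the block Jak2 and Samhd1 were higher (3.98% of all tested genes higher). In those labelled MRTFB it called 0 (0.126%) and 5 had an unadjusted p under 0.05, and with the block Tmem173, Ifitm2 and Ccl5 were lower (2.83% of all tested genes lower). Jak2 had 1529, 1709 and 1653 in the libraries labelled MRTFA and 1330.4, 1258 and 1324 in controls. The libraries labelled MRTFB, set directly against those labelled MRTFA, had 0 of 36 genes called (1.09% of all tested genes), and Gbp2 and Ifitm3 lower with the block (2.56% of all tested genes lower). With replicates 1 and 2 alone, Gbp2 was called lower (0.640%), and with the block Gbp2 and Ifitm3 (2.84%).

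The difference between the lines was tested as an interaction over all 18 libraries, the MRTFA effect in E0771 minus that in B16F10. It was called for 2 of the 37 genes, both higher in E0771 (Irf1 and Gbp2), where 12.6% of all tested genes were higher. Irf1 differed by 1.18 (SE 0.30, adjusted p = 0.0115, limma), from an effect of 0.91 in E0771 and −0.27 in B16F10. Gbp2 differed by 3.09 (SE 0.83, adjusted p = 0.0145, limma), from 3.98 in E0771 and 0.89 in B16F10. With the replicate block 19 of the 37 were called, all higher in E0771 (18.3% of all tested genes higher). Among replicates 1 and 2 alone, 12 of 36 were called (18.1%) and, with the block, 20 (31.0%). Without the first or without the second libraries of every group, and with no block, 0 were called (1040 of 14405 and 723 of 14481 tested genes). The MRTFB effect differed between the lines for 0 of the 37 genes, without or with the block (0.114% and 0.545% of all tested genes), at an unadjusted p under 0.05 for 0 without the block, and by edgeR and DESeq2 for 0. With the block 10 of the 37 had an unadjusted p under 0.05 (limma), as had 1825 of all 14859 tested genes. On replicates 1 and 2 alone, 0 were called (0.362%), and Ddx58 and Ifitm3 with the block (0.969%).

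Some of these genes are counted with uncertainty, since the sources used here do not give the counting mode or strand setting. By the annotation, Irf9 shares 123 exon bases with Rnf31 and Igtp 162 with Irgm2 on the same strand, and Ifi35 shares 290 with Gm11626, Irf1 135 with Gm17334 and Irf7 45 with Phrf1 on the opposite strand. Ifit, Oas, Gbp, Mx and Ifitm genes have close relatives in the mouse genome, and reads that fit more than one of them could have been dropped or split.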

How the data were processed

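RNA sequencing was done on 18 libraries of 2 lines, 9 per line, and the deposited table holds 18909 genes whose summed reads reach 15 or more. The deposited values are a signal, reads divided by a size factor. Per the submitters' processing notes, the tools used were cutadapt 1.6, STAR 2.5.0a, HTSeq 0.5.3 and DESeq, with build mm10. The sources used here do not give the annotation release. In all 18 columns 100% of values were whole reads within 0.001 of a read once rescaled, and these recovered reads gave the library totals. Of the gene IDs, 18827 were in GENCODE M21 (GRCm38), used for positions and exon lengths.

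The members and lists were chosen with earlier results of these data known. The named genes were those called in any comparison with control, without or with the block, up to 15 by adjusted p, with other genes of the 37 added to show the spread of each role, and up to 8 other pathway genes by adjusted p plus Ifnar1, Ifngr1 and Socs1. A gene that this rule also takes in is not reported here. Differences were tested with limma 3.58.1 in R 4.3.3 (trended variance) on log2(value + 1), which understates the change of low genes. Genes entered when 3 or more fitted libraries had a value of 10 or more, and the Benjamini-Hochberg adjustment ran over all tested genes (13189 in E0771, 13517 in B16F10 and 14859 over both), with a threshold of 0.05. Each line was fitted with its 9 libraries, and contrasts between lines with all 18. The same test was tried on simulated data with no shared shift by replicate number, so the trial does not bear on the third libraries.

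The replicate numbers come from the labels. Deviations from the group means correlated between same-numbered libraries at 0.459 to 0.553 for MRTFB and control in E0771, 0.353 to 0.567 for MRTFA and control and 0.382 to 0.486 for MRTFB and control in B16F10, 0.134 to 0.474 for MRTFB and MRTFA in E0771 and 0.403 to 0.634 in B16F10. For MRTFA and control in E0771 they were 0.0842 to 0.525. Alternatives were the replicate block, other pseudocounts and filters, upper-quartile scaling, edgeR 4.0.16 and DESeq2 1.42.0 on recovered reads, and left-out libraries. The block together with a left-out replicate number was added after the data were seen.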

Additional observations from a re-analysis of the deposited data

Results flagged for a closer look

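The effect of MRTFA differed between the lines for Irf1 and for Gbp2, by the interaction term of limma over all 18 libraries. These were 2 of the 37 genes, where 12.6% of all tested genes were called higher in E0771. Without the first or without the second libraries of every group, 0 of the 37 were called (1040 of 14405 and 723 of 14481 tested genes). For Irf1 the log2 difference was 0.91 in E0771 and −0.27 in B16F10, a difference of 1.18 (SE 0.30, adjusted p = 0.0115). All 3 E0771 MRTFA libraries were above their equal-numbered controls and all 3 B16F10 libraries labelled MRTFA below theirs. For Gbp2 it was 3.98 in E0771 and 0.89 in B16F10, a difference of 3.09 (SE 0.83, adjusted p = 0.0145), with MRTFA above control in all 3 pairs of both lines. The control means of Gbp2 were unlike, 47.4 in E0771 and 1076 in B16F10. Mkl1 itself was called higher in E0771 MRTFA libraries and not in the B16F10 libraries labelled MRTFA, and its part in this difference was not tested. Groups of 3 libraries were not tested for outlying samples.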

How the results depend on the processing

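The number of the 37 genes called depended mostly on the replicate block and on the third libraries, and the cause was not tested. Brackets give the calls over all tested genes in the same fit. With MRTFA in E0771, 4 were called over all libraries (5064 of 13189) and 19 with the replicate block (6405). DESeq2 called 8 (5172), and edgeR with the block 25 (6243). Without 1 replicate number it was 2 (2850 of 12511, without the first) to 11 (3944 of 12463, without the third). With the block as well it was 15 (5551 of 12463, without the third) to 24 (5000 of 12511, without the first). For MRTFB against MRTFA in E0771, 4 were called (4430 of 13189), 16 with the block (5780) and 22 by edgeR with the block (5585). Without 1 number it was 1 (1174 of 12552, without the second) to 10 (3684 of 12463, without the third). With the block as well it was 15 (2140 of 12552, without the second) to 21 (4609 of 12511, without the first). Without the third and with the block it was 18 (5426 of 12463). In B16F10 the libraries labelled MRTFA gave 0 (209 of 13517), and 2 with the block by limma (855) and by edgeR (859). Without 1 number they gave 0 (0 of 13199, without the first) to 1 (219 of 13129, without the third). With the block as well they gave 1 (192 of 13199, without the first) to 22 (1391 of 13129, without the third). Those labelled MRTFB gave 0 (17 of 13517), 3 with the block (603) and 2 by edgeR with the block (546). Without 1 number they gave 0 (0 of 13199, without the first) to 4 (224 of 13129, without the third). With the block as well they gave 0 (46 of 13199, without the first) to 26 (1642 of 13129, without the third). Those labelled MRTFB against those labelled MRTFA gave 0 (148 of 13517), and 2 with the block by limma (359) and by edgeR (354). Without 1 number they gave 0 (0 of 13199, without the first) to 1 (84 of 13129, without the third). With the block as well they gave 1 (98 of 13199, without the first) to 2 (373 of 13129, without the third). The MRTFA effect differed between lines for 2 genes (3138 of 14859), 19 with the block (5165) and 23 by edgeR with the block (4863). Without 1 number it was 0 (1040 of 14405, without the first) to 12 (2591 of 14352, without the third). With the block as well it was 10 (1716 of 14481, without the second) to 20 (4454 of 14352, without the third), and 14 without the first (3220 of 14405). The MRTFB effect differed for 0 (17 of 14859). Without 1 number and with the block it was 0 (0 of 14405, without the first) to 2 (139 of 14352, without the third). Between the control groups 11 were called (10430 of 14859), and 27 with the block by limma (10839) and by edgeR (10811). Without 1 library it was 7 (10005 of 14843, without the second E0771 control) to 15 (9939 of 14820, without the third E0771 control). Without 1 number it was 5 (9331 of 14405, without the first) to 27 (9609 of 14352, without the third). With the block as well it was 23 (9787 of 14405, without the first) to 32 (9988 of 14352, without the third). Among values called under an alternative, 2 genes turned against their sign over all libraries. Without the third libraries Samd9l was −0.36 with MRTFA in E0771 and 0.41 for MRTFB against MRTFA, each without and with the block, and Cmpk2 was 0.48 for MRTFB against MRTFA, called with the block. Of 7476 values for single genes under the alternatives, 440 were called newly in the same direction and 57 were no longer called. In all 679 changed sign, of which 674 were called neither over all libraries nor under the alternative, 5 were called under the alternative alone and 0 had been called over all libraries. Genes with few reads, such as Oas2, Mx2 and Zbp1, are limited by depth, and 2 libraries a group leave few degrees of freedom.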
